A study of Mus musculus with 10 samples.

Results

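The AP-1 transcription factor family was read in the skin of C57BL/6 mice as 10 genes fixed by name, Fos, Fosb, Fosl1, Fosl2, Jun, Junb, Jund, Jdp2, Batf and Atf3, of the 19175 genes in the table. The study compared 5 samples labelled as basophil Vamp7 conditional knockout (CKO) with 5 labelled Flox, the floxed controls, which another label field calls WT. Vamp7 encodes a vesicle fusion protein. Both groups came from the MC903 model, in which the vitamin D analogue MC903 (calcipotriol) is put on skin to cause a type 2 dermatitis, so no sample shows skin without MC903. The labels state neither the Cre driver nor the mice's age, the sampling time or whether samples were separate mice. The values are FPKM, a measure scaled for gene length and library size, so that levels of different genes can be set side by side. The number of reads is unknown, so no interval of counting error is given. Values are given as mean ± SD with n = 5 per group, and a p-value here reflects sample-to-sample spread alone, technical or not.

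AP-1 factors are pairs of basic leucine zipper (bZIP) proteins that bind DNA at TGANTCA and at the longer cyclic AMP response element TGACGTCA. Fos proteins bind only with a partner, while Jun proteins also pair with each other, and the make-up of the pair sets whether a target gene is raised or lowered. Fos, Fosb, Jun, Junb and Atf3 are immediate early or stress-induced genes, transcribed soon after growth factor, cytokine or wounding signals. In skin, AP-1 proteins act in keratinocyte differentiation, in wound repair and in inflammation, and mice that lose Jun and Junb in the epidermis develop skin inflammation.

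Library totals were 525369 to 581022 FPKM, with 17418 to 17592 genes above 0. Vamp7 itself was at 17.3 to 19.2 FPKM in CKO, against 18.1 to 22.5 FPKM in Flox, and other skin cells express it, so it does not check a library's label. The skin label was matched by keratinocyte and fibroblast markers. The 9 basal keratinocyte markers summed to 3828 to 5156 FPKM in CKO, against 3750 to 5273 FPKM in Flox, and the 9 fibroblast markers to 3799 to 6066 FPKM in CKO, against 4867 to 6212 FPKM in Flox.

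The plainest change was in Jdp2, the Jun dimerization protein, which rose in CKO skin with a 1.65-fold higher mean. Its call was close to the threshold (adjusted p = 0.0485, limma) and held in 3 of 17 alternative settings. Fosl1 (2.43-fold) and Fosb (3.04-fold) had larger ratios of means at low levels, without passing the test. The remaining 7 genes differed by 1.06-fold (Batf) to 1.55-fold (Atf3). All 10 genes had a positive log2 fold change, against 39.5% of all 13186 genes tested, and 1 of 10 rose at an adjusted p under 0.05, against 0.0455% of all genes tested (limma-trend on log2(FPKM + 1), Benjamini-Hochberg adjustment over all genes). The CKO libraries lay above the Flox libraries without overlap for 4 of the 10, Jdp2, Fosl1, Fosb and Jun, against 1.24% of all genes tested. At an unadjusted p under 0.05, 6 of the 10 were higher, against 4.78% of all genes tested, and 0 of the 10 were lower, against 10.3%. The genes were chosen with earlier results of these data known, so these counts describe them and test nothing further. The median log2 fold change of the 10 was 0.36, against -0.027 for all genes tested. Each of the 10 passed the filter of at least 1 FPKM in at least 5 libraries. Fosb reached 1 FPKM in 5 CKO and 2 Flox libraries and so passed by its CKO values. Without it 9 of 9 genes had a positive log2 fold change, 3 of 9 did not overlap and the median was 0.31. The 6 of 10 at an unadjusted p under 0.05 include Fosb.

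**Figure D1:**
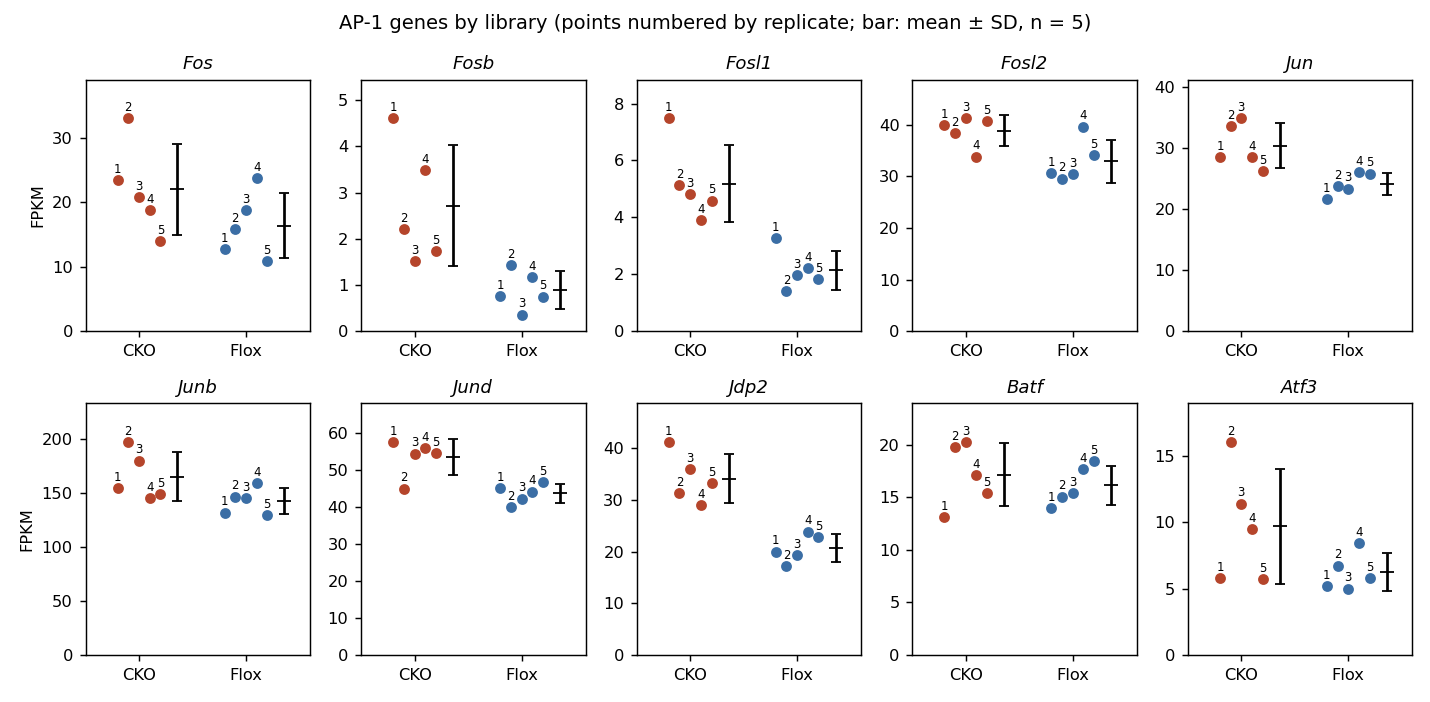
FPKM of the 10 AP-1 genes in each library, CKO left and Flox right, with points numbered by replicate and bars for mean ± SD (n = 5). The groups do not overlap for Jdp2, Fosl1, Fosb and Jun, and CKO replicate 2 is the highest library for Fos, Junb and Atf3.

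The promoter windows of Jdp2, Fosb, Fos, Atf3 and Jun are shown because Jdp2 passed the test, Fosb and Jun did not overlap between groups, and Fos and Atf3 are rapidly induced members; the windows let their AP-1 and CREB/ATF type motifs be compared. Each window runs from 250 bases before to 50 bases after the transcription start, from RefSeq on GRCm38.p6, a build that may not be that of the deposited values. Capitals mark matches, on either strand, to the short CREB/ATF core TGACG, to TGACATCA, a variant of the AP-1 site, or to the MEF2 site. The Jdp2 window is at chr12:85599166-85599465, plus strand, the second of 3 annotated starts and the one with a match. The Fosb window is at chr7:19309996-19310295, minus strand. The Fos window is at chr12:85473640-85473939, plus strand. The Atf3 window is at chr1:191183284-191183583, minus strand, and the Jun window at chr4:95052173-95052472, minus strand.
Jdp2: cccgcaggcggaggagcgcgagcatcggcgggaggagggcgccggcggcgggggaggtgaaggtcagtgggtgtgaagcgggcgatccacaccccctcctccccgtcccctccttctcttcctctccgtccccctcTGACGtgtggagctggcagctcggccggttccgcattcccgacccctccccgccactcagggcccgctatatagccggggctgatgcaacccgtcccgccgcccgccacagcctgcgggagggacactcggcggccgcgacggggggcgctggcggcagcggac
Fosb: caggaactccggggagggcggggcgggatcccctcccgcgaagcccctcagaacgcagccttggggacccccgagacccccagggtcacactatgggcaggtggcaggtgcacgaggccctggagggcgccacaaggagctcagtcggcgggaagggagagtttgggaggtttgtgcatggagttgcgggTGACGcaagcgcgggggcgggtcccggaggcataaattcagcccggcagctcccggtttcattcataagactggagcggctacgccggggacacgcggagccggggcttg
Fos: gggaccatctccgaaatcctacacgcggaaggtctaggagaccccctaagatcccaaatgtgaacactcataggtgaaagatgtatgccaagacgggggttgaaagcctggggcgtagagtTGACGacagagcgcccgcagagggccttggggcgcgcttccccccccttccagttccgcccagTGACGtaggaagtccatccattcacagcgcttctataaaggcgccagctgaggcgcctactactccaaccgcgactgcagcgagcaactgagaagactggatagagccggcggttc
Atf3: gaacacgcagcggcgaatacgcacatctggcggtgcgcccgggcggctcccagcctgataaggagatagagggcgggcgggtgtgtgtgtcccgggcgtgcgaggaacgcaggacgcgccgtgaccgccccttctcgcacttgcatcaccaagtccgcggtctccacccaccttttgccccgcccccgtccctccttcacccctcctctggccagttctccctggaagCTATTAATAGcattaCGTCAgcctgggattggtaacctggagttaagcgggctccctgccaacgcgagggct
Jun: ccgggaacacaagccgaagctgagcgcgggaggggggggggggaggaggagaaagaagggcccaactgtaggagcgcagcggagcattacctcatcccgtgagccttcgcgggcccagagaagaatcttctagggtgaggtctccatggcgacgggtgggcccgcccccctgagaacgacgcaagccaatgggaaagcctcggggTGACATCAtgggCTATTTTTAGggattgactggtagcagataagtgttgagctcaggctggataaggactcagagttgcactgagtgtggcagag

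Of the 10 genes, 9 had a window in the table, and TGACG was found in the windows of 6, Fos, Fosb, Junb, Jdp2, Batf and Atf3. Relative to the start, it stood at -66 to -62 and at -129 to -125 in Fos, at -60 to -56 in Fosb and at -114 to -110 in Jdp2. Counted by window, TGACG was in 6 of the 11 windows of these genes, against 20.8% of all 32851 promoter windows. It overlaps the full element TGACGTCA, which was in 1.79% of all windows and in none of these. The core TGANTCA with C or G in the middle was in 5.2% of all windows and in none of the 11 windows of these genes. TGACATCA was found in Jun, at -45 to -38, against 3.62% of all windows. A MEF2 site, which binds myocyte enhancer factors, was found in Jun and Atf3, against 3.19% of all windows. The serum response CArG box was in 1.63% of all windows and in none of these. Sequence outside the windows was not searched, so a site farther from the start would be missed. The absence of a motif here therefore holds for the windows only, and not for the whole promoter. A match is a run of letters and not a bound site.

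Jdp2 (Entrez 81703) encodes a small bZIP protein that pairs with Jun proteins and is known mainly as a repressor of AP-1 targets. It stood at 41.3, 31.3, 35.9, 29.0 and 33.2 FPKM in CKO replicates 1 to 5, against 20.0, 17.1, 19.4, 23.9 and 22.8 FPKM in Flox replicates 1 to 5. The lowest CKO library was above the highest Flox library, and CKO replicate 1 was the highest of all. The log2 fold change was 0.70 (SE 0.11, 95% interval 0.46 to 0.94), with an adjusted p of 0.0485 (limma), rank 14 of all genes by p. The call is close to its threshold. It held in 3 of 17 alternative settings, where the adjusted p ran from 0.0163 to 0.346 and the log2 fold change from 0.58 to 0.75. Of the fits without 1 library it held in the 1 without CKO replicate 1 (adjusted p = 0.0445, log2 fold change 0.63), and was lost without any other single library, at adjusted p of 0.0577 to 0.145. Without CKO replicate 4 or Flox replicate 4 the unadjusted p of Jdp2 was 4.56e-05 or 4.95e-05 (limma), against 5.14e-05 with all libraries. There the call was lost through the adjustment, which depends on the p-values of all genes tested.

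**Figure D2:**
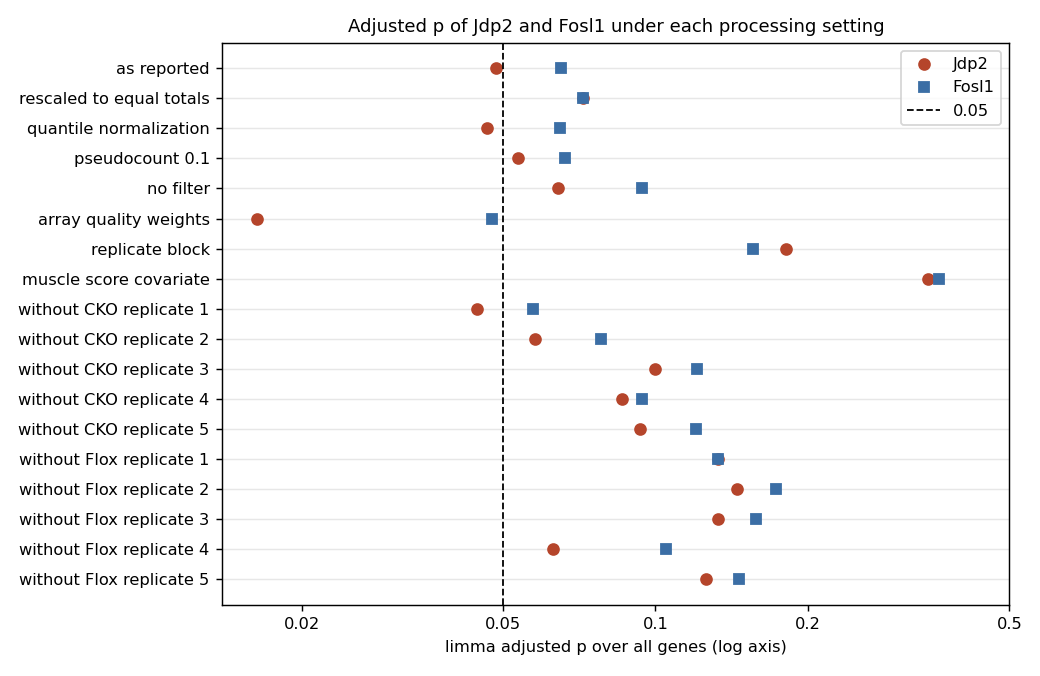
Adjusted p (limma, log axis) of Jdp2 (circles) and Fosl1 (squares) under the reported setting and 17 alternatives, with the dashed line at 0.05. Jdp2 lies below 0.05 as reported and in 3 alternatives, and Fosl1 in 1, with array quality weights (0.0475).

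Atf3 and Batf, the other bZIP members outside the Fos and Jun groups, did not pass the test. Atf3, the stress-induced factor most related to Jdp2, was at 5.76, 16.1, 11.4, 9.48 and 5.74 FPKM in CKO replicates 1 to 5, against 5.17, 6.73, 5.00, 8.45 and 5.81 FPKM in Flox. CKO replicates 2, 3 and 4 were above every Flox library, and CKO replicates 1 and 5 lay within the Flox range. Its log2 fold change of 0.49 (SE 0.25) did not pass (adjusted p = 0.386, limma), and without CKO replicate 2 it was 0.30. Batf, which pairs with Jun proteins and acts with IRF4 or IRF8 in lymphocytes and dendritic cells, was at 13.1, 19.8, 20.3, 17.15 and 15.4 FPKM in CKO, against 14.0, 15.1, 15.4, 17.7 and 18.5 FPKM in Flox. The Batf groups overlapped, with the lowest value in CKO replicate 1, and the 95% interval of its log2 fold change ran from -0.19 to 0.34 (adjusted p = 0.825, limma). The value itself was 0.074, and ran from 0.012 without CKO replicate 3 to 0.21 with a skeletal muscle score as a covariate.

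Among the Fos proteins, Fosl1 (FRA-1), which marks activated and migrating keratinocytes and is itself an AP-1 target, was at 7.49, 5.14, 4.81, 3.91 and 4.59 FPKM in CKO replicates 1 to 5. In Flox replicates 1 to 5 it was at 3.27, 1.41, 1.96, 2.21 and 1.84 FPKM. The groups did not overlap, and replicate 1 was the highest in each. The log2 fold change was 0.98 (SE 0.17, 95% interval 0.61 to 1.35), which did not pass (adjusted p = 0.0651, limma), and ran from 0.83 to 1.26 over the alternatives. Fosl2 (FRA-2), the most abundant Fos member here, was at 39.9, 38.3, 41.3, 33.8 and 40.7 FPKM in CKO, against 30.7, 29.6, 30.5, 39.65 and 34.1 FPKM in Flox. CKO replicates 1, 3 and 5 were above every Flox library, and Flox replicates 4 and 5 lay within the CKO range. The log2 fold change of Fosl2 was 0.24 (SE 0.085, adjusted p = 0.247, limma).

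Fosb and Fos, the rapidly induced members of the group, differed in which libraries were high. Fosb was at 4.61, 2.21, 1.52, 3.49 and 1.74 FPKM in CKO replicates 1 to 5, against 0.76, 1.43, 0.36, 1.17 and 0.75 FPKM in Flox. CKO replicates 1 and 4 were the highest and the groups did not overlap, though 1.52 and 1.43 FPKM lie close together. Its log2 fold change of 0.93 (SE 0.23) did not pass (adjusted p = 0.135, limma), and was 1.4955 with a pseudocount of 0.1, the highest value of Fosb over the alternatives. Fos was at 23.4, 33.1, 20.8, 18.8 and 13.9 FPKM in CKO, against 12.7, 15.8, 18.8, 23.8 and 10.9 FPKM in Flox. Only CKO replicate 2 was above every Flox library, and the interval of the log2 fold change of Fos ran from -0.12 to 0.92 (adjusted p = 0.460, limma). For Fos that change was 0.40 over all libraries and 0.24 without CKO replicate 2.

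Skeletal muscle genes were high in the CKO libraries in which Fosb was high. The summed FPKM of 19 muscle markers was 1961, 512, 670, 1262 and 656 in CKO replicates 1 to 5, against 346 to 595 in Flox. A positive log2 fold change was found in 17 of 17 tested markers, against 39.5% of all genes tested. None of the 19 was at 0 in every library. With the muscle score of each library (mean log2 value of the list) as a covariate, the log2 fold change of Fosb was 0.40 (adjusted p = 0.509, limma), that of Jund 0.19, that of Jdp2 0.58 and that of Fosl1 0.89. Under the same covariate the log2 fold change was 0.73 for Atf3, 0.30 for Junb, 0.35 for Jun and 0.21 for Batf, each above its value without the covariate, and 0.40 for Fos and 0.22 for Fosl2. None of the 10 genes passed in that fit, at adjusted p of 0.346 to 0.709 (limma), and 0 of all genes tested passed in either direction. The score was 4.27 to 6.11 in CKO and 3.71 to 4.39 in Flox, so it partly follows the group. The part of muscle content in the AP-1 values was not tested. In whole skin, more cells of a type and more RNA per cell cannot be told apart.

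The Jun genes had smaller log2 fold changes than Jdp2, Fosl1 and Fosb. Junb and Jund stood at the highest levels of the AP-1 genes, while Jun had a lower mean than Fosl2 in each group. Jun was at 28.45, 33.6, 34.8, 28.5 and 26.2 FPKM in CKO replicates 1 to 5, against 21.6, 23.8, 23.3, 26.0 and 25.8 FPKM in Flox. The groups did not overlap, but the lowest CKO library (26.21 FPKM) and the highest Flox library (26.02 FPKM) were close. The log2 fold change of Jun was 0.31 (SE 0.084, adjusted p = 0.148, limma). Jund, the Jun member that is expressed most steadily in resting cells, was at 57.5, 44.9, 54.3, 55.8 and 54.4 FPKM in CKO, against 44.99, 40.0, 42.2, 44.1 and 46.7 FPKM in Flox. CKO replicate 2 alone lay within the Flox range. The log2 fold change of Jund was 0.28 (SE 0.071, adjusted p = 0.135, limma), and 0.34 without that library (adjusted p = 0.0577). Junb, which can counteract Jun at shared target genes, was at 154, 197, 180, 145 and 148 FPKM in CKO, against 132, 146, 145, 159 and 129 FPKM in Flox. CKO replicates 2 and 3 were above every Flox library and the others overlapped. The log2 fold change of Junb was 0.20 (SE 0.095, adjusted p = 0.344, limma).

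**Figure D3:**
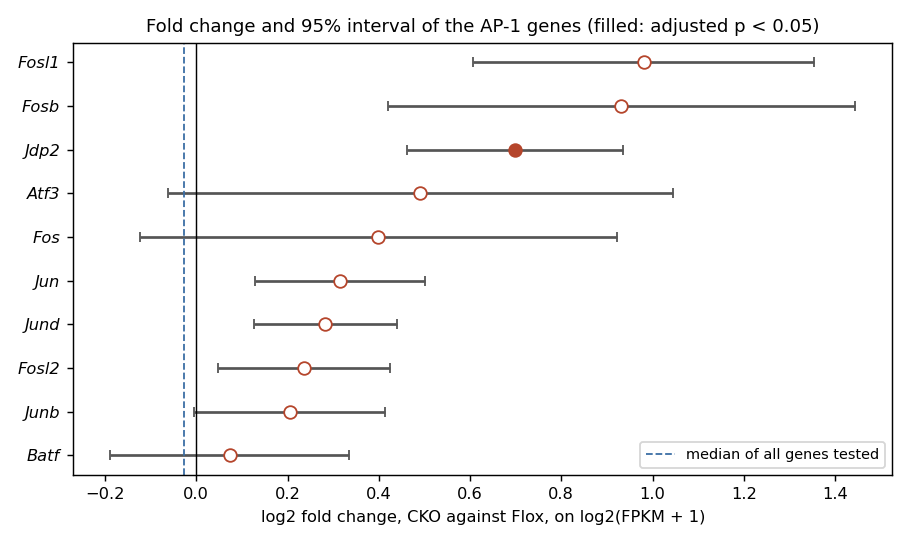
Log2 fold change of each AP-1 gene, CKO against Flox, with its 95% interval (log2(FPKM + 1) values), and the median of all genes tested (-0.027) as a dashed line. The filled point, Jdp2, passed at an adjusted p under 0.05, and the intervals of Atf3, Fos, Junb and Batf include 0.

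On the FPKM scale Junb was the most abundant of the 10 genes in every library. It took 41.0% to 46.8% of their summed FPKM in CKO, against 43.6% to 49.3% in Flox. Jund came next, then Fosl2, and both steps were without overlap within each group. Jdp2 and Jun were neighbours whose order differed between groups. Jdp2 was above Jun in 4 of 5 CKO libraries and in 0 of 5 Flox libraries. Jdp2 took 7.43% to 10.99% of the sum in CKO, against 5.76% to 7.70% in Flox. Fos and Batf did not differ beyond their spread in either group, and Atf3, Fosl1 and Fosb were the lowest. Fosb took at most 1.23% of the sum in CKO and 0.481% in Flox. The summed FPKM of the 3 Jun genes was 248.57 ± 22.1 in CKO and 210 ± 12.1 in Flox. That of the 4 Fos genes was 68.7 ± 8.37 in CKO and 52.3 ± 8.26 in Flox.

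The libraries fell into different orders for different members. CKO replicates 2 and 3 were the highest CKO libraries for Junb, Jun, Atf3 and Batf, and CKO replicate 1 was the highest for Jdp2, Fosl1, Fosb and Jund. In Flox, replicate 4 was the highest for Fos, Junb, Jun, Atf3, Fosl2 and Jdp2. The summed FPKM of 12 neutrophil markers was 8545 and 7792 in CKO replicates 2 and 3 and 3659 to 4744 in the other CKO libraries, against 2900 to 4921 in Flox. This sum adds raw FPKM, so its most abundant genes weigh most. Of the 9 tested neutrophil markers, 8 had a positive log2 fold change, against 39.5% of all genes tested. The exception was Cxcr2, at 55.8 ± 20.5 FPKM in CKO and 56.7 ± 12.3 FPKM in Flox. Of the 9, 0 passed, and none of the 12 was at 0 in every library. The summed basophil markers were at 363 to 479 FPKM in CKO, against 567 to 685 FPKM in Flox, and 4 of 12 fell, against 0.0607% of all genes tested. The part of neutrophil and basophil content in the AP-1 values was not tested.

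**Figure D4:**
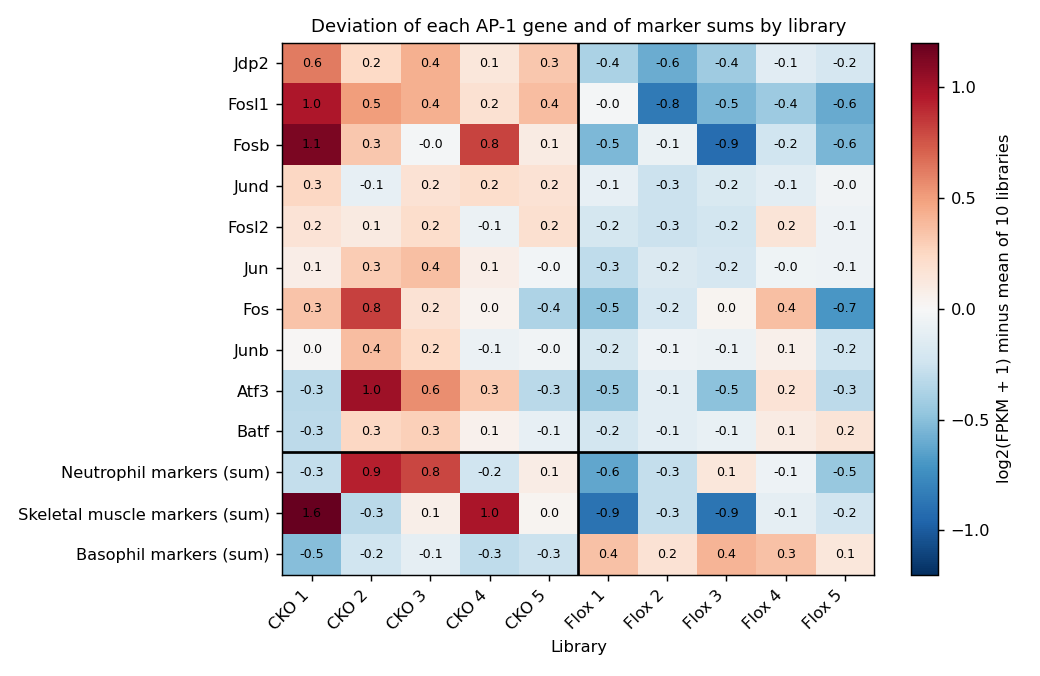
Deviation of log2(FPKM + 1) from the mean of 10 libraries for each AP-1 gene and, below the line, for the summed FPKM of neutrophil, skeletal muscle and basophil markers, with the 5 CKO libraries left and the 5 Flox libraries right. Atf3 and the neutrophil sum are both highest in CKO replicates 2 and 3, and Fosb and the muscle sum in CKO replicates 1 and 4.

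The genes whose log2 values were most like each member over the 10 libraries were taken as the 3 of highest Pearson r among all genes tested, as a description. A shared difference between groups adds to such an r. Each is also the best of all genes tested over only 10 libraries, so a high r can arise by chance. For Fos they were Zfp36 (r = 0.948) and Dusp1 (r = 0.930), both immediate early genes that end cytokine mRNA and MAP kinase signals, and Ctla2a (r = 0.917). For Fosb they were Actn2 (r = 0.935), Mybpc1 (r = 0.932) and Tnnt3 (r = 0.930), which encode proteins of the muscle sarcomere. For Fosl1 they were Mkrn1, Sh2d5 and Sphk1 (r = 0.958, 0.945 and 0.940). For Jdp2 they were Jmjd1c, Wbp1l and Ubald2 (r = 0.967, 0.966 and 0.959), and Jmjd1c was also among the 3 for Fosl2 (r = 0.931). The chemokine receptor-like gene Ccrl2 was among the 3 for both Junb (r = 0.948) and Atf3 (r = 0.952). For Jun they were Pkm, Mcl1 and Crtc2, with r of 0.945 to 0.965.

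The signalling genes upstream of AP-1 were measured in lists chosen by role. For each list below, the shares over all genes tested were 39.5% with a positive log2 fold change, 0.0455% risen and 0.0607% fallen. At such shares, 0 past the test says little about lists of this size. Without overlap, 1.24% of all genes tested lay above Flox in CKO and 3% below. Of 36 tested kinases of the MAP kinase pathways, which phosphorylate Jun proteins and the activators of Fos, 0 passed in either direction (limma), 17 had a positive log2 fold change and the median was -0.019. The kinase of lowest p was Map3k8 (TPL2), which relays toll-like and TNF receptor signals to ERK. Map3k8 was at 18.2, 16.4, 15.9, 14.9 and 16.7 FPKM in CKO, against 11.8, 11.5, 14.0, 12.9 and 10.7 FPKM in Flox. Its groups did not overlap (log2 fold change 0.40, SE 0.075, adjusted p = 0.0672, limma). The p38 kinase gene Mapk11 was at 3.22 ± 0.351 FPKM in CKO libraries against 4.15 ± 0.349 FPKM in Flox libraries. Rps6ka1 (RSK1) was at 27.7 ± 1.92 FPKM in CKO libraries against 32.7 ± 2.12 FPKM in Flox libraries, and Rps6ka3 (RSK2) at 20.3 ± 0.911 FPKM in CKO libraries against 23.3 ± 1.46 FPKM in Flox libraries. For both RSK genes, which encode kinases downstream of ERK, the CKO libraries lay below the Flox libraries without overlap, as for 3% of all genes tested, and neither passed. Of the 36 kinases, 2 lay below and 1 above without overlap.

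Of Srf and its 5 cofactor genes, which drive serum-induced transcription of Fos, 0 of 6 passed and the median log2 fold change was -0.017. Srf was at 11.2 ± 0.789 FPKM in CKO libraries against 11.8 ± 1.27 FPKM in Flox libraries. The log2 fold changes of Mrtfb, Elk3 and Elk1 were 0.069, -0.080 and -0.039. Feedback genes of the MAP kinases, the phosphatases of the Dusp family with Sprouty, Spred and Gadd45 genes, had a positive log2 fold change in 15 of 21, with a median of 0.14 and 0 past the test. Dusp16, a phosphatase of JNK and p38, was at 11.7 ± 0.801 FPKM in CKO libraries against 9.58 ± 0.608 FPKM in Flox libraries, without overlap. Gadd45g, a stress gene that activates the p38 and JNK pathways, was at 18.3 ± 2.22 FPKM in CKO libraries against 14.2 ± 1.22 FPKM in Flox libraries, also without overlap. Dusp16 and Gadd45g were the 2 of 21 without overlap. Dusp6, the ERK phosphatase, was at 40.8 ± 3.50 FPKM in CKO libraries against 45.3 ± 2.85 FPKM in Flox libraries, and the EGFR inhibitor Errfi1 at 53.2 ± 12.7 FPKM in CKO libraries against 40.6 ± 9.84 FPKM in Flox libraries.

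Other bZIP factors were spread about 0. Of 38 tested, 0 passed (limma), 14 had a positive log2 fold change and the median was -0.016, with either sign over the alternatives (-0.030 to 0.027). Cebpb, which acts in inflammatory and keratinocyte gene expression, was at 86.3 ± 8.001 FPKM in CKO libraries against 67.9 ± 7.55 FPKM in Flox libraries (log2 fold change 0.34, SE 0.085). Maff, a small Maf protein that also pairs with Fos, was at 18.9 ± 2.54 FPKM in CKO libraries against 14.6 ± 1.24 FPKM in Flox libraries, with the CKO libraries above the Flox libraries. Nfe2, a factor of megakaryocytes and red cell precursors, was at 3.63 ± 0.716 FPKM in CKO libraries against 5.75 ± 0.744 FPKM in Flox libraries. Dbp, a circadian output factor, was at 16.9 ± 3.71 FPKM in CKO libraries against 24.5 ± 3.31 FPKM in Flox libraries, and for both Nfe2 and Dbp the CKO libraries lay below the Flox libraries. Of the 38, 3 lay below without overlap, against 3% of all genes tested, and 1 above, against 1.24%. Among 19 genes of AP-1 turnover and of AP-1 partner proteins, 3 had a positive log2 fold change, 0 passed and the median was -0.11. It was -0.061 without CKO replicate 1, -0.067 without Flox replicate 4 and -0.050 with array quality weights. The Ets factor gene Ets2 was at 49.2 ± 5.38 FPKM in CKO libraries against 35.98 ± 4.95 FPKM in Flox libraries, without overlap, the 1 gene of the 19 to do so. Fbxw7, the ubiquitin ligase adaptor that marks Jun for degradation, was at 5.24 ± 0.422 FPKM in CKO libraries against 6.37 ± 0.565 FPKM in Flox libraries. Runx1 was at 6.69 ± 1.51 FPKM in CKO libraries against 8.28 ± 1.19 FPKM in Flox libraries, and Trib3 at 8.85 ± 1.77 FPKM in CKO libraries against 7.20 ± 1.16 FPKM in Flox libraries.

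**Figure D5:**
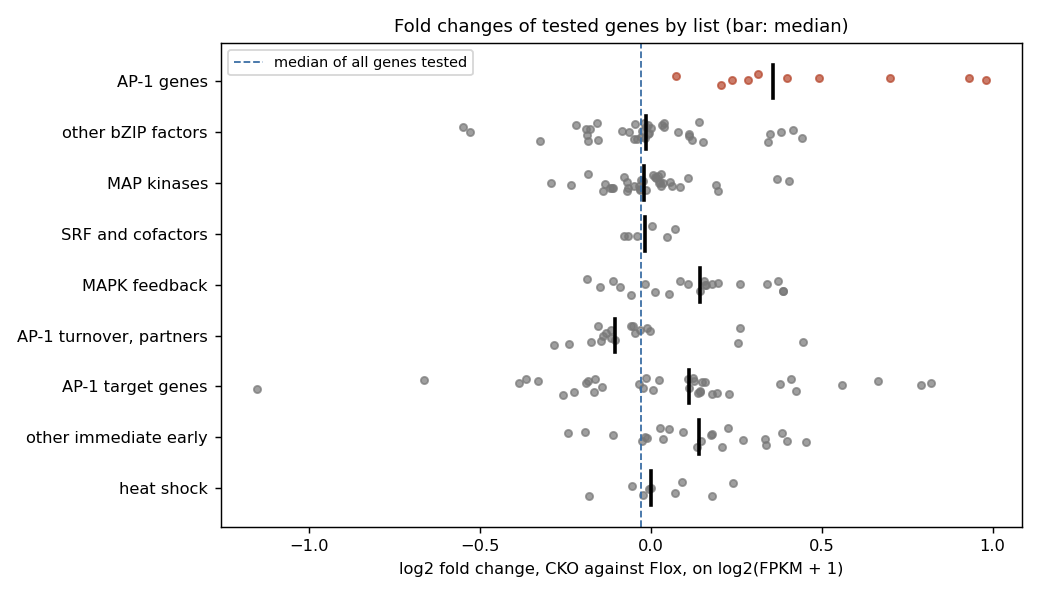
Log2 fold change, CKO against Flox, of each tested gene of the AP-1 genes (top row) and of 8 related lists, with black bars for list medians and a dashed line for the median of all genes tested. The AP-1 median is 0.36, and the other medians lie between -0.11 (AP-1 turnover and partners) and 0.14 (MAPK feedback and other immediate early genes).

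Genes known to be AP-1 targets in skin or immune cells went in both directions. Of 36 tested, 0 passed (limma), 21 had a positive log2 fold change and the median was 0.11. That median was 0.035 without CKO replicate 2, 0.057 without CKO replicate 1, 0.065 to 0.073 without Flox replicate 1, 2 or 5, and 0.041 with array quality weights. Ptgs2, the inducible prostaglandin synthase, was at 50.7, 51.0, 44.4, 30.6 and 42.9 FPKM in CKO replicates 1 to 5, against 33.01, 20.9, 24.5, 26.9 and 17.6 FPKM in Flox. CKO replicate 4 alone lay within the Flox range (log2 fold change 0.82, SE 0.18, adjusted p = 0.0923, limma). Areg, the EGFR ligand amphiregulin, was at 38.3, 24.1, 24.8, 27.9 and 26.0 FPKM in CKO, against 19.0, 19.0, 19.6, 20.1 and 15.5 FPKM in Flox, with the CKO libraries above the Flox libraries (adjusted p = 0.0962, limma). On the other side Il6 was at 8.83 to 15.5 FPKM in CKO, against 18.0 to 22.4 FPKM in Flox, and Il4 at 1.59 to 5.48 FPKM in CKO, against 7.30 to 12.8 FPKM in Flox. Neither cytokine gene passed, at adjusted p of 0.0739 and 0.0845 (limma), and both had CKO libraries below the Flox libraries. Of the 36 targets, 2 lay below and 2 above without overlap. Basophils are a known source of Il4, and their markers were lower in the same CKO libraries, as given above. The part of basophil content in the Il4 values was not tested.

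Immediate early genes outside AP-1 had a positive log2 fold change in 16 of 22, with a median of 0.14 and 0 past the test (limma). The median was 0.056 without CKO replicate 2. Klf2 was at 23.6 ± 3.13 FPKM in CKO libraries against 18.4 ± 1.71 FPKM in Flox libraries, without overlap, the 1 gene of the 22 to do so. Nfkbiz, an inhibitor-like partner of NF-kappaB, was at 19.1 ± 4.13 FPKM in CKO libraries against 13.5 ± 1.84 FPKM in Flox libraries, and Klf4 at 103.7 ± 26.6 FPKM in CKO libraries against 76.4 ± 4.18 FPKM in Flox libraries. Ccn2, a matrix protein gene induced by TGF-beta, was at 323 ± 51.3 FPKM in CKO libraries against 254 ± 19.8 FPKM in Flox libraries. Heat shock genes, which rise with tissue stress, had a positive log2 fold change in 4 of 9, with 0 past the test. Among them Hsph1 was at 14.3 ± 2.18 FPKM in CKO libraries against 16.2 ± 0.999 FPKM in Flox libraries, Hspa8 at 943 ± 58.9 FPKM in CKO libraries against 884.9 ± 26.2 FPKM in Flox libraries, Hspa1a at 11.5 ± 3.33 FPKM in CKO libraries against 9.40 ± 1.5995 FPKM in Flox libraries, and Hspb1 at 79.6 ± 18.5 FPKM in CKO libraries against 69.2 ± 8.06 FPKM in Flox libraries.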

How the data were processed

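Poly(A) RNA of mouse skin was selected with oligo(dT) beads, copied with random hexamers and sequenced as single-end reads, per the labels' protocols. The authors deposited 1 table of FPKM per gene for 10 samples, per the file headers. HISAT is the aligner that the submitters' processing notes name, without a version. Counter, genome build and annotation: not given in the sources used here. In 35 of 19175 genes all libraries were at 0.

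The test was limma-trend (limma 3.58.1, R 4.3.3), two-sided, on log2(FPKM + 1) for 13186 genes that reached 1 FPKM or more in 5 or more libraries, with Benjamini-Hochberg adjustment over these genes and a threshold of 0.05. The pseudocount understates changes of low genes. The procedure was tested on simulated data. Members, lists and rules were chosen with earlier results of these data known. In each list the 4 tested genes of lowest p are named. Promoter sequences are from RefSeq (GRCm38.p6). Alternatives were equal totals, quantile normalization, a pseudocount of 0.1, no filter, array quality weights, the replicate number as a block, a muscle score covariate and each library left out in turn.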

Additional observations from a re-analysis of the deposited data

Results flagged for a closer look

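In groups of 5, a library was singled out where its gap to the nearest other value exceeded 0.71 of the group's range. Of 86 groups checked, 7 were singled out, and chance alone does so in about 1 of 20. Among the AP-1 genes this was Jund in CKO replicate 2, at 44.87 FPKM against 54.3 to 57.5 FPKM in the other CKO libraries. Among the genes of the related lists, Areg was at 38.29 FPKM in CKO replicate 1 against 24.1 to 27.9 FPKM in the other CKO libraries. Areg was also low in Flox replicate 5, at 15.48 FPKM against 19.0 to 20.1 FPKM in the other Flox libraries. Dusp6 was at 46.84 FPKM in CKO replicate 3 against 38.5 to 40.7 FPKM in the other CKO libraries. Il4 was at 12.79 FPKM in Flox replicate 2 against 7.30 to 8.18 FPKM in the other Flox libraries. Rps6ka1 was at 36.52 FPKM in Flox replicate 5 against 31.7 to 32.0 FPKM, and Hspb1 at 55.38 FPKM in Flox replicate 4 against 70.7 to 76.4 FPKM.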

How the results depend on the processing

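Each of the 10 AP-1 genes kept a positive log2 fold change in all 17 alternatives. No filter and the replicate block leave each log2 fold change as reported, so they could not alter a sign. Fits without 1 library share most of their libraries, so the 17 are not independent checks. The count of AP-1 genes past the threshold was 1 as reported, 2 with array quality weights (Jdp2 and Fosl1, adjusted p = 0.0163 and 0.0475), and 0 with equal totals, a pseudocount of 0.1, no filter, the replicate block or the muscle covariate. It was 0 to 1 without 1 library. For Jdp2 the adjusted p (limma) in those settings was 0.0719, 0.0536, 0.0641, 0.181 and 0.346. Over all genes, 6 rose and 8 fell as reported. The counts higher and lower were 2 and 6 with equal totals, 1 and 2 with no filter, 30 and 60 with array quality weights, and 0 and 0 with the replicate block (1911 genes at an unadjusted p under 0.05) or the muscle covariate (1253). Without 1 library they were 0 to 11 and 0 to 15, with both at 0 without Flox replicate 1, 2, 3 or 5 (1498 to 1822 genes at an unadjusted p under 0.05). Same-numbered libraries deviated from their group means with correlations of -0.21 to 0.21 across genes. Of the CKO libraries only replicate 5 was most alike its same-numbered Flox library. Such correlations cannot settle whether the replicate numbers pair the libraries. The MAP kinase median was 0.0038 with quantile normalization, against -0.019. The cause of these changes was not tested. Over the alternatives the medians ran from 0.035 to 0.13 for AP-1 targets, 0.056 to 0.19 for other immediate early genes, 0.096 to 0.16 for MAPK feedback and -0.13 to -0.050 for AP-1 turnover and partners. They took either sign for other bZIP factors (-0.030 to 0.027), Srf and cofactors (-0.046 to 0.020) and heat shock genes (-0.074 to 0.070). The depth is unknown, which limits Fosb and Fosl1 most, as they had the lowest FPKM.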

Other observations

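Fos, Jdp2 and Batf are consecutive protein-coding genes on chromosome 12 in RefSeq (GRCm38.p6), in that order. Their log2 fold changes were 0.40, 0.70 and 0.074. Of the 4 protein-coding genes on each side, 7 were tested, with log2 fold changes of -0.13 to 0.042. Of these 7, 0 passed in limma, the lowest adjusted p was 0.406, and 0 had an unadjusted p under 0.05. Tmed10, next to Fos, was at 82.0 ± 2.54 FPKM in CKO libraries against 79.6 ± 3.26 FPKM in Flox libraries, and Flvcr2, next to Batf, at 1.63 ± 0.243 FPKM in CKO libraries against 1.68 ± 0.243 FPKM in Flox libraries. These neighbours were looked up after the values of Jdp2 were known.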
